A study of Rattus norvegicus with 10 samples.

Results

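The transcripts described here were the lncRNAs newly assembled in rat brain that had no other transcript in their locus. Of the 1924 lncRNAs that the authors assembled from these libraries and listed with exon positions on the rn5 genome, those whose spans overlapped on the same chromosome and strand were joined into 676 loci, and 358 of these loci held exactly 1 transcript. The other 318 loci held 1566 transcripts. No measured level entered this choice. Whether an Ensembl gene lay in the same place was not part of the rule, since the positions of Ensembl transcripts were not used here, so "alone" means alone among the assembled lncRNAs.

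The libraries came from 5 male Sprague Dawley rats named P45, P52, P61, P71 and P72, all subjected to transient middle cerebral artery occlusion (MCAO), in which a suture blocks the artery for 2 hours and is then withdrawn so that blood returns. Tissue of the left and the right hemisphere of each rat was sampled 24 hours after MCAO, which gave 5 libraries per side and 10 in all. Every rat carried the injury and each side served as the pair of the other, so no brain without MCAO was in the comparison. Only rats that circled on the deficit scale were used. The tissue was dissected from the middle coronal slices, and the study states that it profiled the cortex. The tissue mixed brain cell types, dead and living tissue included. Left and right hemisphere below mean this sampled tissue of each side, not the whole hemisphere. The labels do not name the injured side. The right hemisphere was taken as ischemic because the study drew the suture into the artery of that side and its left-over-right ratios are negative for transcripts that it calls upregulated, TCONS_00068312 among them. Its deficit scale lists signs on the right of the body, which usually follow injury to the left hemisphere. The age of the rats was not given, and the tissue was not checked against defining brain markers, because the Ensembl identifiers of the table were not paired with gene symbols here.

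LncRNAs are RNA molecules above a set length that do not appear to encode a protein. Many are spliced from few exons, are present at low level, and are made in particular cell types, and the brain is among the tissues with the most of them. Some act near their own gene, some elsewhere in the cell, and some serve as the precursor from which a microRNA (miRNA) is cut. In focal ischemia the blocked artery starves its territory of oxygen, neurons die, glia become reactive and blood cells enter the tissue within the first day, so the mixture of cells as well as the activity of genes changes. In tissue libraries such as these, fewer cells of a type and less RNA per cell cannot be told apart.

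The level of each transcript was given as FPKM, fragments scaled to the length of exon and to the number of mapped fragments. FPKM holds no read counts, so depth could be compared only in relative terms, from the commonest ratio between the low values of a pair of libraries. Relative to the deepest library, depth was 63.9% to 100% on the left and 59.92% to 80.83% on the right, and the right library was the less deep in 4 of 5 rats.

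The lncRNAs alone in their locus were short in exons. Of the 358, 290 (81.0%) had 2 exons, 52 had 3 exons and 16 had between 4 and 7, while 36.9% of the lncRNAs that shared a locus had 2 exons and 35.8% had 4 or more. These are descriptions without a test, because transcripts of a shared locus reuse each other's exons. Without introns they were 227 to 25353 nt long (median 1701.5 nt), close to the 1599.5 nt of the shared lncRNAs, but they covered less of the genome. The median span from first to last base was 5185.5 nt against 16641.5 nt.

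Most of the sequence of these transcripts lay in a single exon. The longest exon held a median of 80.1% of the transcript, and at least 90% in 118 of them. Among the 290 with 2 exons the last exon was the longer in 166, with medians of 526.5 nt for the first exon and 880.5 nt for the last. Small exons were present too. The shortest exon had a median of 175.5 nt, it was under 50 nt in 54 transcripts (15.1%, against 24.1% of the shared lncRNAs), and in 5 it was under 20 nt. The 452 introns had a median of 1413 nt and a range from 50 to 238002 nt. An intron of at least 10000 nt was present in 74 transcripts and one under 70 nt in 8.

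**Figure D1:**
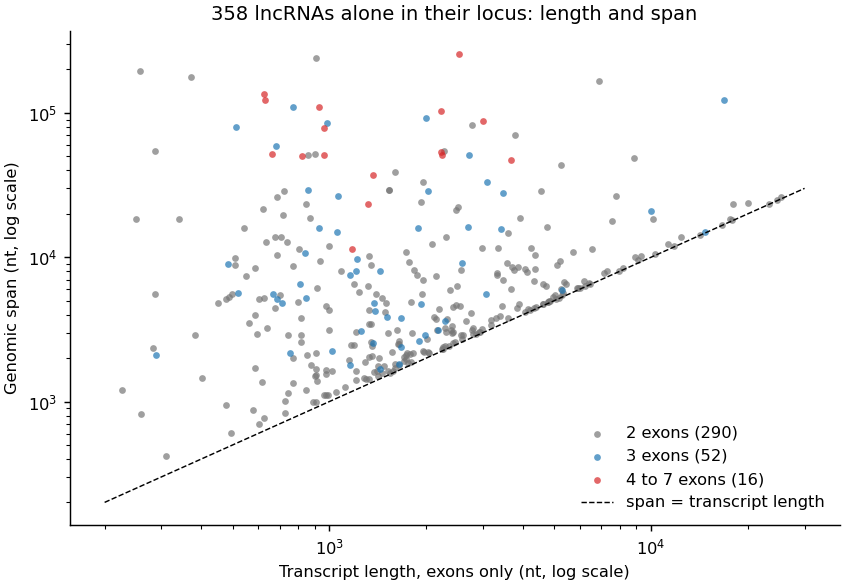
Length of the 358 lncRNAs alone in their locus without introns (x axis, nt, log scale) against the span from first to last base on rn5 (y axis, nt, log scale), with 1 point per transcript coloured by its number of exons and a dashed line where both are equal. Lengths run from 227 to 25353 nt (median 1701.5 nt) and spans from 420 to 257250 nt (median 5185.5 nt). Transcripts close to the line are those whose introns are short relative to their exons.

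They were spread over 21 chromosomes, 179 on each strand. Chromosome 1 held 49 of them in 87 assembled loci, chromosome 3 had 37 of 59, chromosome 7 had 30 of 51 and chromosome 2 had 27 of 61. The share of loci with a single transcript was 22.2% on chromosome X, 4 of 18, and 64.7% on chromosome 20, 11 of 17. The nearest other assembled locus on either strand was a median of 632632 nt away. It was under 1000 nt away for 14 transcripts and under 10 kb for 24, of which 14 had it on the same strand, and it was within 1 Mb for 204.

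The extremes show what kinds of transcript the rule gathered. The longest was TCONS_00095094 (chr7:53667116-53693109, plus strand), whose exons of 4655 and 20698 nt fill nearly all of its span, and it was present at 1.88 ± 0.228 FPKM on the left and 2.02 ± 0.423 on the right (SD, n = 5 each). The shortest was TCONS_00049625 (chr18:21931271-21932476, minus strand), with exons of 150 and 77 nt. TCONS_00074188 had the widest span, 257250 nt (chr3:38330066-38587315, plus strand), for only 2525 nt of exon, and was listed at 3.91 ± 0.308 FPKM on the left and 4.60 ± 1.53 on the right (SD, n = 5 each). The most exons, 7, were found in TCONS_00008355 (chr1:11336593-11458676, plus strand, 632 nt) and TCONS_00033758 (chr13:98214607-98325012, minus strand, 928 nt). None of these 5 passed the test between sides.

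At the level of expression, the lncRNAs alone in their locus were listed higher than the lncRNAs that shared one. Their mean FPKM over the 10 libraries ran from 0.130 to 1057 with a median of 1.33, against 0.683 in loci of 2 to 5 transcripts and 0.297 in loci of 6 or more. The sum over each shared locus had a median of 2.79 FPKM, above the single transcripts. Cufflinks divides the fragments of a locus among its isoforms, so the level of one transcript and the number of transcripts in its locus are not independent, and no test was made. A mean of at least 1 FPKM was reached by 231 of the 358 (64.5%, against 23.1% of the shared lncRNAs), one of at least 10 by 35 (9.78% against 1.98%), and one of at least 100 by 5. Ensembl transcripts above 0 in any library had a median of 4.54 FPKM.

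Nearly all of them were found in each library. The authors had kept only transcripts detected in at least 5 of the libraries, so detection in that many was largely set by their filter. An FPKM of at least 0.1 was listed for 345 to 355 of the 358 in single libraries, and for 357 in at least 5 of the 10. Of the 3580 values 25 were listed at 0, in 17 transcripts. All 358 had a mean of at least 0.1 FPKM and so entered the test, as did 1338 of the 1566 shared lncRNAs (85.4%). The number at 1 FPKM or more lay between 207 and 236 in the left libraries, and had its lowest and highest values among the right libraries, with 180 in P61 and 258 in P71. The median over the 358 was likewise 1.04 FPKM in the right library of P61 and 1.84 in that of P71, and 1.21 to 1.44 in the left libraries.

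FPKM, which is divided by length, varied with length in both directions. The 20 transcripts under 500 nt had a median of 4.02 FPKM and 6 of them reached 10 FPKM, the 86 of 500 to under 1000 nt had 0.964, the 155 of 1000 to under 3000 nt had 1.15, and the 97 of at least 3000 nt had 2.14, with 15 at 10 FPKM or more. Across the 358 transcripts, which come from the same libraries and are not independent, Spearman's rho of length and mean FPKM was 0.239.

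Of the 5 most abundant by mean FPKM, TCONS_00067232 (chr3:136181989-136236643, plus strand) stood far above all others on that scale. It is a transcript of 286 nt with exons of 209 and 77 nt across a long intron, and its level was 1148 ± 257 FPKM on the left and 966 ± 276 on the right (SD, n = 5 each). It was lower on the right in 4 of 5 rats and higher in P72, and the change of -0.26 on the log2(FPKM + 0.1) scale (standard error 0.23) did not pass the test (adjusted p = 0.519 from limma). TCONS_00082249 (chr5:154193229-154197548, plus strand, 1325 nt) had 198 ± 41.8 and 161 ± 45.4 FPKM, a change of -0.31 (standard error 0.14, limma adjusted p = 0.206). TCONS_00049625, the shortest of all, was the steadiest of the 5, with 136, 143, 138, 123 and 127 FPKM in the left hemispheres of P45, P52, P61, P71 and P72 and 107, 140, 115, 116 and 127 in the right ones. Its sides overlapped, and its change was -0.15 (standard error 0.08, limma adjusted p = 0.308). TCONS_00059998 (chr2:202548238-202559040, minus strand, 1727 nt) had 119 ± 10.1 FPKM on the left and 106 ± 21.9 on the right, where the library of P61 was low at 67.8 and the other four lay between 109 and 124. Its change was -0.20 (standard error 0.17, limma adjusted p = 0.486). The fifth, TCONS_00074275, passed the test and is described with the downregulated transcripts.

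In the left hemispheres alone, where 231 transcripts had a mean over all libraries of at least 1 FPKM, the coefficient of variation over the 5 rats had a median of 21.9%. It was under 10% in 23 of them, with the lowest value, 4.49%, in TCONS_00070544 and the highest, 81.7%, in TCONS_00005490. Over all 10 libraries the highest value was under 2 times the lowest in 47 of the 358 (13.1%, against 1.72% of the shared lncRNAs), and 17 of these 47 had a mean of at least 10 FPKM. It was at least 10 times the lowest in 48 (13.4% against 70.4%). Both comparisons are unmatched for level. All 358 had a mean of at least 0.1 FPKM, but only 1338 of the 1566 shared lncRNAs did.

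The spread of the difference between sides from rat to rat was also taken. Right minus left was taken in each rat on the scale of log2(FPKM + 0.1), and its SD over the 5 rats had a median of 0.614 among the lncRNAs alone in their locus, 1.26 among those sharing one and 0.401 among Ensembl transcripts. The sums over shared loci had a median of 0.608, about that of the transcripts alone in theirs. In the class with a mean of 1 to 10 FPKM the medians were 0.552 for the 196 alone, 0.853 for the 331 shared lncRNAs, 0.626 for 258 locus sums and 0.462 for 6470 Ensembl transcripts. At 10 FPKM or more they were 0.356, 0.649, 0.490 and 0.250, and at 0.1 to 1 FPKM they were 0.903, 1.37, 0.687 and 0.990. So in the upper classes the values of a transcript alone in its locus moved less between rats than those of an isoform and more than those of an Ensembl transcript at similar level. These medians are given as a description, with no test.

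**Figure D2:**
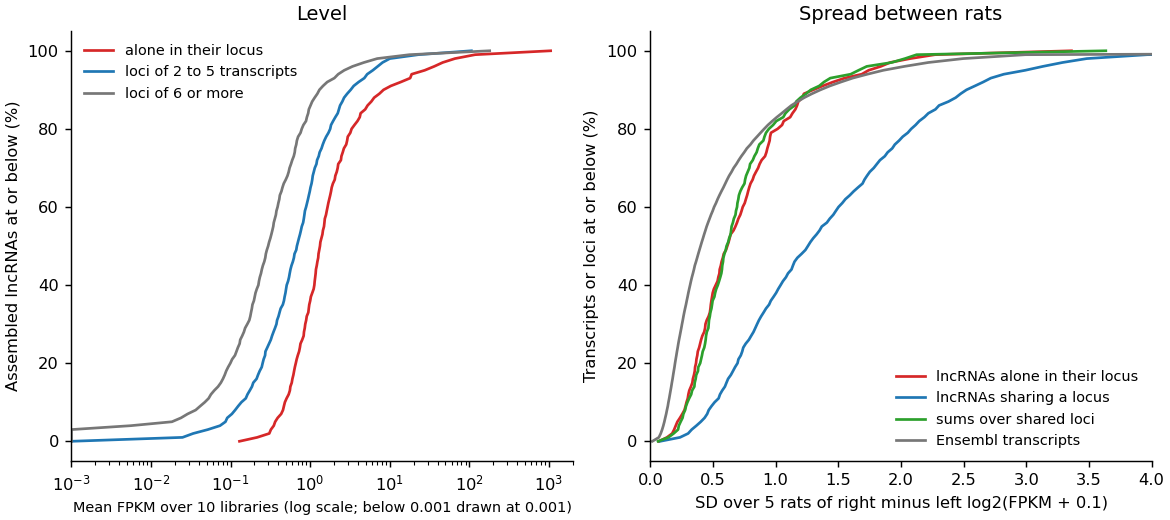
Left, the percentage of assembled lncRNAs (y axis) at or below a mean FPKM over 10 libraries (x axis, log scale), for transcripts alone in their locus and for those in loci of 2 to 5 or of 6 or more transcripts. Right, the percentage at or below an SD over 5 rats of right minus left log2(FPKM + 0.1) (x axis), where the lncRNAs alone in their locus (median 0.614) lie beside the sums over shared loci (0.608), left of the shared lncRNAs (1.26) and right of the Ensembl transcripts (0.401).

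The question put by the design is which transcripts changed in the ischemic hemisphere. With the rat as a block, limma's test over the 20936 transcripts with a mean of at least 0.1 FPKM called a transcript when its Benjamini-Hochberg adjusted p was under 0.05. It called 14 of the 358 lncRNAs alone in their locus (3.91%), 10 upregulated and 4 downregulated on the right. Over all transcripts tested the share called was 7.71%, with 5.52% higher and 2.19% lower, and for these lncRNAs both shares, 2.79% and 1.12%, lay below them. Among the shared lncRNAs 11 of 1338 (0.822%) were called, among the sums of their loci 7 of 318 (2.20%), and among Ensembl transcripts 1589 of 19240 (8.26%). An unadjusted p under 0.05 was reached by 51 of the 358 (14.2%), where the share over all transcripts was 26.6%. When quantile normalization replaced the deposited scaling, 10 were called and the split was 6 upregulated and 4 downregulated. The share over all transcripts was then 6.72%.

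With 4 rats instead of 5 fewer were called. Leaving out P45 gave 1 call, P52 gave 2, P61 gave 3, P71 gave 5 and P72 gave 12. The share called over all transcripts moved with it, at 1.32%, 2.24%, 1.99%, 4.22% and 8.54%. The changes themselves moved less, and those of the 14 kept their sign in each of these runs and stayed between 0.79 and 1.21 times the change with 5 rats. TCONS_00068312 was called in all 5 of these runs, TCONS_00057827 in 4, TCONS_00036789 and TCONS_00111734 in 2 each, and every other one in at most 1. Each of the 14 moved in its direction in 5 of 5 rats, which has a p of 0.0625 in an exact permutation of signs (two-sided), and 5 rats cannot give a smaller one. Such agreement over 5 rats was found in 30 upward (8.38%) and 21 downward (5.87%) of the 358, against 13.7% and 11.1% of all transcripts tested.

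The lncRNAs alone in their locus as a whole lay slightly below 0. The median change was -0.09, against -0.01 over all transcripts tested and -0.20 over the shared lncRNAs, and 148 of the 358 (41.3%) were above 0, against 48.8%. The scaling moved this value by over 1.5 times, to -0.04 after rescaling to TPM (45.8% above 0) and to -0.21 after quantile normalization (31.6%). It was -0.03 without P61 and -0.02 without P72. The median over all transcripts tested moved too, to 0.04, -0.05, -0.01 and 0.005 in these 4 settings. From the 5th to the 95th percentile the changes ran from -0.82 to 0.87. The median differed between rats, with -0.10 in P45, 0.04 in P52, -0.26 in P61, 0.27 in P71 and -0.15 in P72, while for Ensembl transcripts it stayed between -0.01 and 0.04. The right library of P71 thus listed 223 of the 358 above its left one, and that of P61 only 127. Relative depth on the right and left was 66.53% and 63.9% in P61, and 77.49% and 100% in P71. The depth estimate left residuals of up to 0.13 on the log2 scale, so the P61 libraries cannot be ordered by depth. A link between depth and these numbers was not tested. A change of at least 1 in size was found in 24 (6.70%, against 9.28% of all transcripts), 12 in each direction, and 11 of the 24 were called. Among the 35 with a mean of at least 10 FPKM, 27 were below 0 (77.1%). The share was 71.4% after rescaling to TPM, 68.6% without P52 and 65.7% without P61. The changes of the 35 ran from -0.72 to 0.33, and 34 were under 0.5 in size. The share below 0 among other transcripts of that level is not given here.

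**Figure D3:**
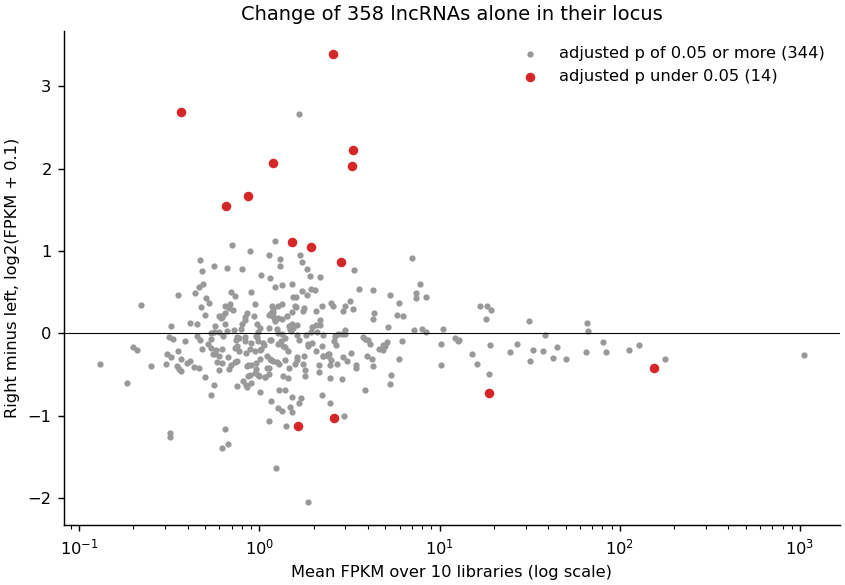
Right minus left log2(FPKM + 0.1) of the 358 lncRNAs alone in their locus (y axis) against their mean FPKM over 10 libraries (x axis, log scale), with the 14 that had an adjusted p under 0.05 in red. The 10 upregulated ones all have a mean under 10 FPKM, and 2 of the 4 downregulated ones lie above 10 FPKM.

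TCONS_00068312 (chr3:89753818-89842298, minus strand) was the upregulated transcript whose call was lost in none of the runs with a rat left out. It has 4 exons and 3004 nt, of which the first exon holds 2399. The study places the hairpin of miR-129-2, a miRNA of a brain-enriched family, in its intron, and the mature miRNAs cut from that hairpin are shown because a host transcript and its miRNA can arise from the same primary RNA. The seed, bases 2 to 8, is in capitals, as read from RefSeq sequences of the GRCr8 build.
rno-miR-129-2-3p: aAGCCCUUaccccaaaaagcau
rno-miR-129-5p: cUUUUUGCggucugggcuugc
A second locus, on another chromosome, gives the same 5p sequence and a 3p form with the same seed that is 19 rather than 22 nt long.
rno-miR-129-1-3p: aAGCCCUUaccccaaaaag
The miRNAs themselves were not analysed here. The levels of TCONS_00068312 were 0.755, 0.859, 2.43, 1.07 and 1.06 FPKM in the left hemispheres of P45, P52, P61, P71 and P72, and 5.54, 3.38, 7.51, 2.96 and 7.10 FPKM in the right ones. Every right value was above every left value, and P61 had the highest value on both sides. The change was 2.04 (standard error 0.26, limma adjusted p = 0.0097), with means of 1.23 ± 0.681 and 5.30 ± 2.08 FPKM (SD, n = 5 each). With unmoderated variances in limma the adjusted p was 0.0538.

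Values are listed below in the same order of rats. TCONS_00111734 (chr9:116438906-116443783, plus strand, 2 exons, 1798 nt) had the largest fitted change at the pseudocount of 0.1, while with 0.01 its 4.25 was below the 4.99 of TCONS_00057827. It was low in all left hemispheres, at 0.0585, 0.0382, 0.171, 0.104 and 0.183 FPKM, and was listed at 0.879, 1.4, 20.6, 1.39 and 0.874 FPKM in the right ones. The right library of P61 stood apart from the other four, which lay between 0.874 and 1.4 FPKM and still above every left value. The change was 3.40 (standard error 0.64, limma adjusted p = 0.0281), and 2.68 without P61 (limma adjusted p = 0.0427). With a pseudocount of 1 the change was 1.6 and no longer passed (limma adjusted p = 0.11), and with P45, P52 or P71 left out the changes were 3.59, 3.39 and 3.53, as large as before but not called with 4 rats (limma adjusted p = 0.0959, 0.0832 and 0.0703).

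TCONS_00057827 (chr2:71196784-71198312, plus strand, exons of 720 and 188 nt) was at or near 0 in the nonischemic hemispheres. Its left values were 0.0599, 0, 0, 0 and 0.0546 FPKM and its right values 1.04, 0.779, 0.680, 0.364 and 0.669 FPKM, with no overlap. The fitted change of 2.69 (standard error 0.33, limma adjusted p = 0.00909) depends on the pseudocount for a transcript listed at 0, and ran from 0.73 with a pseudocount of 1 to 4.99 with 0.01. Without P45 the change was 2.66, nearly the same, with a limma adjusted p of 0.0544.

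TCONS_00036789 (chr14:44862559-44864721, plus strand, 3 exons, 752 nt) was listed at 0.321, 0.387, 0.589, 0.279 and 0.210 FPKM on the left and 1.26, 3.46, 3.17, 0.780 and 1.47 FPKM on the right. The sides did not overlap, and P52 and P61 had the highest values on the right. Its change was 2.07 (standard error 0.31, limma adjusted p = 0.0146). TCONS_00074111 (chr3:162845110-162848021, minus strand) is a short transcript with exons of 156 and 227 nt. Its left values were 0.862, 1.59, 0.645, 0.416 and 2.74 FPKM and its right values 4.67, 4.62, 8.25, 5.80 and 3.53 FPKM, a change of 2.23 (standard error 0.49, limma adjusted p = 0.0438). P72 was the highest on the left and the lowest on the right, so its own change was 0.35 while those of the other four rats lay between 1.48 and 3.51.

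A group of 3 transcripts rose from low levels by under 2 on the log2 scale. TCONS_00064295 (chr20:5792577-5797003, plus strand, 2 exons, 3824 nt) went from 0.300, 0.258, 0.479, 0.367 and 0.391 FPKM to 1.13, 1.44, 1.77, 1.56 and 0.959 FPKM without overlap, a change of 1.67 (standard error 0.26, limma adjusted p = 0.0165). TCONS_00060395 (chr2:53179700-53183150, minus strand, 2 exons, 1345 nt) had 0.202, 0.192, 0.650, 0.184 and 0.260 FPKM on the left and 0.636, 1.26, 1.20, 0.781 and 1.14 FPKM on the right. Its left value in P61 lay apart from the other four and just above the right value in P45, so the sides overlapped, and the change was 1.54 (standard error 0.31, limma adjusted p = 0.0328). TCONS_00097976 (chr7:11963778-11978663, plus strand) has 14737 nt of exon in a span little longer. It was listed at 0.901, 0.705, 1.01, 1.06 and 0.890 FPKM and at 1.75, 1.53, 1.92, 2.53 and 2.84 FPKM, again without overlap, a change of 1.10 (standard error 0.21, limma adjusted p = 0.0289). With a pseudocount of 1 these 3 changes were 0.79, 0.63 and 0.69, and 1.07 for TCONS_00036789, and each was still called.

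The other 2 upregulated transcripts were TCONS_00084636 and TCONS_00063530. TCONS_00084636 (chr5:147884710-147885816, plus strand, 2 exons, 973 nt) had means of 1.22 ± 0.307 FPKM on the left and 2.63 ± 0.676 on the right (SD, n = 5 each), and its lowest right value, 2.02, was above its highest left value, 1.64. The change was 1.05 (standard error 0.21, limma adjusted p = 0.0351). TCONS_00063530 (chr20:12842577-12854496, plus strand) has 11789 nt of exon. It was listed at 1.59, 1.94, 1.55, 2.16 and 2.50 FPKM on the left and 2.31, 3.69, 3.96, 3.03 and 5.69 FPKM on the right. The right value of P45 fell inside the left range, and the change was 0.87 (standard error 0.19, limma adjusted p = 0.0451).

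**Figure D4:**
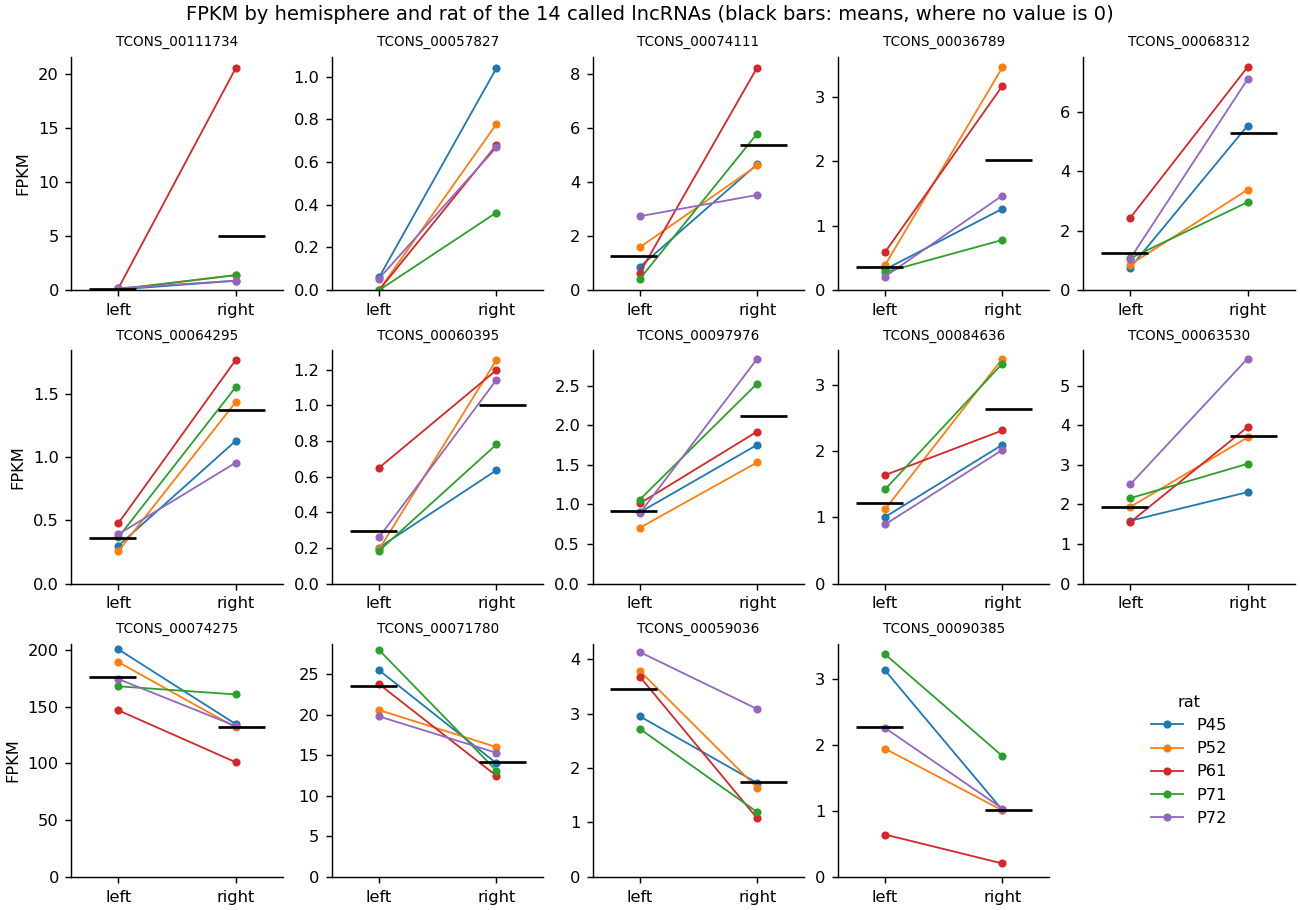
FPKM (y axis, linear, each panel with its own scale from 0) of the 14 called lncRNAs in the left and the right hemisphere, with 1 coloured line per rat and black bars at the means where no library was listed at 0. All 5 lines rise in the 10 upregulated transcripts and fall in the 4 downregulated ones, and in TCONS_00111734 the line of P61 ends at 20.6 FPKM while the other four end at or under 1.4.

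Among the 4 downregulated transcripts, TCONS_00071780 (chr3:93336873-93439485, plus strand, 4 exons, 2224 nt) fell from 25.5, 20.6, 23.8, 28 and 19.8 FPKM on the left to 14, 16, 12.5, 13.1 and 15.3 FPKM on the right. It was the only one of the 358 whose right values all lay below its left values, against 3.62% of all transcripts tested. The change was -0.72 (standard error 0.14, limma adjusted p = 0.0286), with means of 23.5 ± 3.41 and 14.2 ± 1.48 FPKM (SD, n = 5 each).

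TCONS_00090385 (chr6:115867957-115873854, minus strand, 3 exons, 5273 nt) differed widely between rats and was lower on the right within each. Its left values were 3.13, 1.94, 0.642, 3.37 and 2.26 FPKM and its right values 1.01, 1.01, 0.204, 1.83 and 1.04 FPKM, so the sides overlapped and P61 was the lowest on both. The change was -1.12 (standard error 0.21, limma adjusted p = 0.0286), and in a fit without the rat as a block the adjusted p was 0.206. TCONS_00059036 (chr2:268880096-268888448, minus strand, exons of 563 and 24 nt) fell from 2.95, 3.78, 3.68, 2.72 and 4.13 FPKM to 1.73, 1.64, 1.08, 1.19 and 3.08 FPKM. The right value of P72 lay inside the left range, and the change was -1.02 (standard error 0.22, limma adjusted p = 0.0430).

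TCONS_00074275 (chr3:131430952-131437478, plus strand) was the most abundant transcript called. A first exon of 76 nt joins a last exon of 6384 nt. It was listed at 200, 189, 147, 168 and 174 FPKM on the left and 135, 132, 101, 161 and 133 FPKM on the right, with means of 176 ± 20.6 and 132 ± 21.2 FPKM (SD, n = 5 each). P61 was the lowest on both sides, and the right value of P71 lay inside the left range. The change of -0.42 (standard error 0.10) was at the edge of the threshold (limma adjusted p = 0.0492), and it was called under 3 of 10 other settings.

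Separation of the sides and the call did not pick the same transcripts. All right values lay above all left values in 13 of the 358 (3.63%), against 6.41% of all transcripts tested, and 8 of the 13 were called. The other 5 were TCONS_00007527, TCONS_00013348, TCONS_00051670, TCONS_00053335 and TCONS_00072908, with changes between 0.44 and 0.95 and limma adjusted p between 0.0525 and 0.1. TCONS_00013348 (chr1:146708378-146710272, minus strand, exons of 813 and 890 nt) had left values of 1.54, 1.72, 1.95, 1.55 and 1.5 FPKM and right values of 2.13, 2.45, 2.93, 2.43 and 2.18 FPKM. Its 5 changes had an SD of only 0.07 around 0.52. It did not pass with the moderated variance (limma adjusted p = 0.1) and passed when limma's variance was not moderated (adjusted p = 0.0289).

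TCONS_00041088 (chr15:60655786-60660619, minus strand, exons of 398 and 51 nt) shows the opposite case, a large change with a wide spread. It was listed at 0.590, 0.258, 0, 0.709 and 0.356 FPKM on the left and 0.620, 2.38, 5.89, 2.33 and 3.49 FPKM on the right. It was higher in 5 of 5 rats, but by little in P45, and the change of 2.67 (standard error 0.77) missed the threshold (limma adjusted p = 0.0864). TCONS_00072415 (chr3:181565742-181570498, plus strand, 4613 nt) was higher in 5 of 5 rats by a small amount, from 1.41 ± 0.237 to 1.77 ± 0.276 FPKM (SD, n = 5 each, change 0.32, limma adjusted p = 0.316). The study lists it among its top differentially expressed lncRNAs by a paired test, unlike the result here. Its 5 changes had an SD of 0.13, while the standard error with limma's moderated variance was 0.18. The study names 7 of the 358, which are TCONS_00068312, TCONS_00064295, TCONS_00090385, TCONS_00097976, TCONS_00084636, TCONS_00072415 and TCONS_00013348. It chose them on these samples, so their 5 calls here are not independent evidence of their direction. The study also reports PCR of some lncRNAs in a separate cohort of paired brains. Its primers include those for TCONS_00068312 and TCONS_00064295, and that cohort was not analysed here.

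Calls were found among all kinds of structure. Of the 290 transcripts with 2 exons 7 were upregulated and 2 downregulated. The counts were 2 and 1 of the 52 with 3 exons, and 1 and 1 of the 16 with 4 or more. Over all transcripts tested, whatever their structure, 5.52% were higher and 2.19% lower on the right. By level, 3 of the 127 under 1 FPKM were upregulated and none downregulated. The counts were 7 and 2 of the 196 at 1 to 10 FPKM, and 0 and 2 of the 35 at 10 FPKM or more. In either direction these are 2.36%, 4.59% and 5.71%, where Ensembl transcripts of the same levels had 2.86%, 9.01% and 10.1%. Such small counts show no pattern by level. None of the 24 with another assembled locus within 10 kb was called, which at a share of 3.91% over the 358 shows nothing about neighbours. Among the 154 with no other assembled locus within 1 Mb, 5 were upregulated and 1 downregulated.

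The lncRNAs with the largest spread between rats included some whose direction differed from rat to rat. TCONS_00095309 (chr7:116128916-116152371, plus strand, 2 exons, 844 nt) was listed at 16.1, 10.9, 23.6, 27.5 and 4.66 FPKM on the left and 23.2, 16.6, 5.56, 2.11 and 31.3 FPKM on the right. Left was far above right in P61 and P71, right far above left in P72, and P45 and P52 differed less. The mean change was -0.37 with an SD over rats of 2.49, the same transcript being high in one hemisphere or the other. TCONS_00056533 (chr2:20216162-20225426, minus strand, 2 exons, 1771 nt) had 4.25, 2.45, 3.40, 5.06 and 0.0838 FPKM on the left and 0.391, 0.862, 0.0436, 0.115 and 1.95 FPKM on the right. It was lower on the right in 4 rats and higher in P72, with a change of -2.05 (SD over rats 3.36, limma adjusted p = 0.316). Without P72 the change was -3.44 (limma adjusted p = 0.0310), in a run where 8.54% of all transcripts were called. That run drops the only rat with the opposite direction, so its call is no evidence of a decrease. TCONS_00005490 (chr1:54215050-54223954, minus strand, 3 exons, 484 nt) had values from 0.178 to 3.02 FPKM and an SD of 2.36 between rats.

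Other lncRNAs alone in their locus ranked the 10 libraries much as TCONS_00095309 did. Over the 230 others with a mean of at least 1 FPKM, Spearman's rho over the 10 libraries was highest for TCONS_00031555 (0.94), TCONS_00019449 (0.85), TCONS_00013580 (0.79), TCONS_00059998 (0.79), TCONS_00046460 (0.78) and TCONS_00033758 (0.76), which lie on chromosomes 13, 10, 1, 2, 17 and 13. TCONS_00031555 and TCONS_00046460 had their 2 lowest values in the right libraries of P61 and P71, and TCONS_00046460 had its highest, 4.36 FPKM, in the right library of P72, as TCONS_00095309 did. TCONS_00033758 had 5.04 FPKM in the right library of P72 and 0.839 in the left one. These 10 libraries are pairs from 5 rats, the transcripts were picked after their values were seen, and the rho is given as a description.

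**Figure D5:**
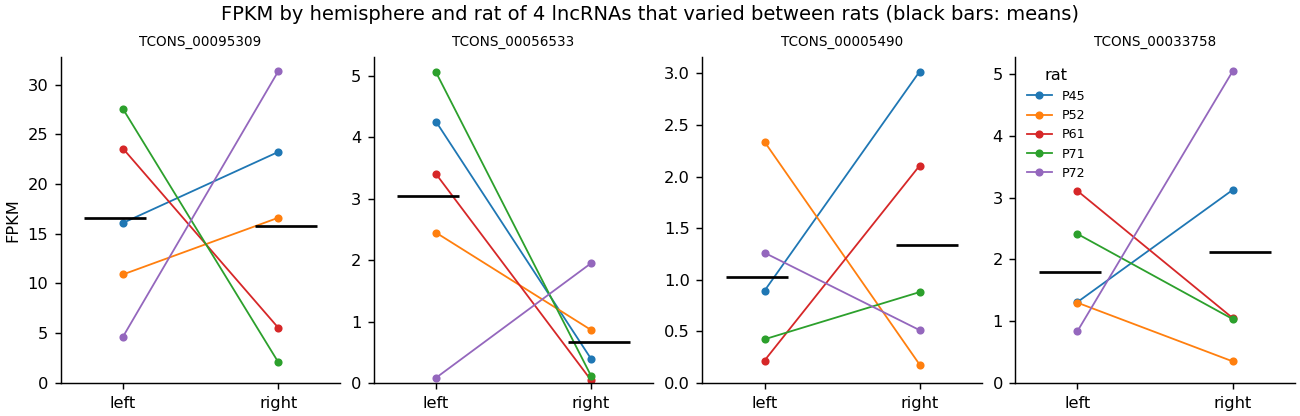
FPKM (y axis, linear, each panel with its own scale from 0) of 4 lncRNAs alone in their locus with a large spread between rats, in the left and the right hemisphere, with 1 coloured line per rat and black bars at the means. In TCONS_00095309 the lines of P61 and P71 fall to 5.56 and 2.11 FPKM while that of P72 rises from 4.66 to 31.3 FPKM.

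Being alone on its strand did not always leave a transcript without a partner. For 7 of the 358 an assembled lncRNA on the opposite strand overlapped the span. None of the 7 was called, which shows nothing about such overlap at shares of 3.91% over the 358 and 7.71% over all transcripts tested. As the strand of these transcripts came from the assembly and no stranded kit is named, reads over shared bases cannot be told apart by strand. TCONS_00019962 (chr10:92143772-92148226, minus strand) and TCONS_00020216 (chr10:92145082-92148245, plus strand) share 2933 nt of exon and were both abundant, with means of 50.6 and 37.6 FPKM. The first was 1.07 to 1.58 times the second in every library, and the changes were -0.31 (limma adjusted p = 0.0926) and -0.21 (limma adjusted p = 0.395). The pair TCONS_00040275 and TCONS_00040377 on chromosome 15 shares 352 nt of exon, and the pair TCONS_00078228 and TCONS_00081279 on chromosome 4 shares 339 nt, with all means under 1 FPKM. TCONS_00006882 on chromosome 1 lies opposite 3 transcripts of a shared locus.

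On the same strand 4 pairs of these lncRNAs lay less than 10 kb apart. The fitted changes within each pair differed by less than their standard errors. TCONS_00047515 and TCONS_00047516 on chromosome 17 lie 64 nt apart (chr17:29038560-29088874 and chr17:29088939-29140202, minus strand), with means of 1.92 and 2.24 FPKM and changes of 0.02 and -0.02 (standard errors 0.22 and 0.24). TCONS_00080647 and TCONS_00080958 on chromosome 4, 4786 nt apart, had changes of 0.53 and 0.69 (standard errors 0.29 and 0.36). TCONS_00024676 and TCONS_00024677 on chromosome 11, 4548 nt apart, had -0.15 and -0.19 (standard errors 0.25 and 0.40). TCONS_00002701 and TCONS_00006739 on chromosome 1, 1681 nt apart, had -0.42 and -0.52 (standard errors 0.48 and 0.31). These last 2 moved in opposite directions in P52 (0.310 to 0.713 and 2.08 to 1.45 FPKM) and in P61 (0.303 to 0.108 and 0.629 to 0.776 FPKM). In P45, P71 and P72 they moved in the same direction. None of the 8 was called. If loci less than 10 kb apart on a strand are joined, 344 lncRNAs remain alone and the number called stays at 14.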

How the data were processed

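The FPKM values were deposited per transcript and library, unpooled. The authors aligned reads to rn5 with TopHat2, assembled and quantified transcripts with Cufflinks over the Ensembl annotation, and kept multi-exon transcripts of low coding potential that were detected in at least 5 libraries. Their list of assembled lncRNAs gave exons and strand. Here log2(FPKM + 0.1) of 20936 of 32166 transcripts with a mean of at least 0.1 FPKM was fitted with limma 3.58.1 (lmFit, eBayes with trend, R 4.3.3), the rat as a block, Benjamini-Hochberg adjusted over all 20936. This scale understates changes of low transcripts. FPKM is not a count, so no count model was used. The block rests on the labels, which place both sides in 1 rat, and deviations of both sides correlated between -0.13 and 0.18. Python 3.11.15, numpy 2.4.6, pandas 2.3.3 and matplotlib 3.10.9 made the tables and figures. p-values rest on the spread between these 5 rats, with the variance of each transcript drawn by limma toward a trend over all transcripts tested.

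Members and lists were chosen with earlier results of these data known. Transcripts named were those called, the 5 most abundant, the 5 of largest change with 5 of 5 rats alike and a mean of at least 1 FPKM, those the study names, the extremes of structure and the 3 most variable at that mean. Neighbours, pairs and co-varying transcripts were named after their values were seen. Sequences of the lncRNAs were not printed, since no rn5 genome was used. Alternatives were other pseudocounts, filters, scalings, locus definitions and variance models, no block, and each rat left out.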

Additional observations from a re-analysis of the deposited data

Results flagged for a closer look

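Among the 28 named lncRNAs, each side's 5 values were searched for a library far from the other four, by the gap to its nearest neighbour as a share of the range of the 5 (limit 0.71). Of the 56 groups 4 had one, where chance at 1 in 20 gives 2.8, and all 4 came from P61. The left library of P61 was the highest for TCONS_00068312 (share 0.812, at 2.43 FPKM) and for TCONS_00060395 (0.836, at 0.650 FPKM). The right library of P61 was the highest for TCONS_00111734 (0.973, at 20.6 FPKM) and the lowest for TCONS_00059998 (0.74, at 67.8 FPKM).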

How the results depend on the processing

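Of 416 values of the 28 named lncRNAs under other settings, 321 kept direction and side of the threshold, 82 lost the call, 4 gained one and 9 changed sign without ever being called. The 14 calls (10 upregulated, 4 downregulated) became 7 (6 and 1) with every transcript above 0 tested and 5 (4 and 1) without moderation. They became 12 (10 and 2) without a trend, and 10 (6 and 4) after quantile normalization. In these settings the share called over all transcripts was 4.67%, 2.49%, 4.69% and 6.72%, against 7.71% in the main fit. Leaving out each rat gave 1 to 12 called, 1 to 7 upregulated and 0 to 5 downregulated, with 1.32% to 8.54% called over all transcripts. Without the rat as a block 18 were called (15 and 3), and 10.3% of all transcripts. Pseudocounts of 0.01 and 1 gave 13 and 15, a mean of at least 1 FPKM gave 13, TPM gave 15, and sums per shared locus gave 15. Joining loci by exons only, on either strand or within 10 kb left 365, 351 and 344 lncRNAs alone, with 14 called each time. At 1 FPKM in 5 libraries 227 were detected, not 357. The median SD over rats of 0.614 became 0.356 with a pseudocount of 1, 0.669 with 0.01, 0.492 at a mean of at least 1 FPKM, and 0.555 to 0.638 with each rat left out. The cause was not tested, though leaving out a rat also leaves fewer pairs. Depth was known only in relative terms, so no counting interval could be given for any FPKM, and low values rest on few fragments.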
